A study of Rattus norvegicus with 20 samples.

Results

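Long non-coding RNAs (lncRNAs) are transcripts that carry no long open reading frame. Some act in the nucleus at the locus or chromosome that makes them, others build nuclear bodies, bind microRNAs, or are spliced away to release small nucleolar RNAs and microRNAs from their introns. Nervous tissue is known for a rich and cell type specific set of them. The lncRNAs described here are the entries of the expression table that carry the type lncRNA and have a mean of at least 5 FPKM, a fragment count scaled by transcript length and library size, over all 20 libraries. They number 173 of the 8368 lncRNA entries and of the 30443 genes in the table. Since the mean level chose them, the levels below are a description. The differences between regions and between conditions were not used by that rule, but an entry that is high in one tissue alone can pass the mean through that tissue.

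The libraries came from 4 adult female Long-Evans rats, wild type, about 6 to 8 months old and weighing 275 to 350 g. Every rat, controls included, received a hemicontusion at cervical level 4 with a displacement of 0.7 mm, and 2 weeks later an electrode array in the motor cortex opposite the injury. A test of the movement threshold by pulses through each wire followed 1 week after implantation and is listed for all 4 rats. After it the 2 stimulated animals received current for 1 week, on 5 days, 5 h per day at 10 Hz. It came in cycles of 5 min on and 2 min off, at 80% of the movement threshold. The 2 control animals were connected in that week without current. From each animal 5 regions were dissected, giving 4 libraries per region: subcortical white matter under the electrode (region 1), the matching block of the other hemisphere (region 2), cord rostral to the lesion (region 3), the lesion epicenter (region 4) and cord caudal to it (region 5). There was no uninjured animal, so a region difference cannot be split into anatomy and injury, and each condition rests on 2 animals. The RNA was total RNA after depletion of ribosomal RNA, so unspliced and non-polyadenylated transcripts can be read.

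Markers set the frame for all results. Oligodendrocyte markers (Mbp, Mog, Mobp, Mag) summed to 453 to 1747 FPKM in regions 1 and 2 against 4390 to 6520 FPKM in the cord. Markers of cortical excitatory neurons (Slc17a7, Tbr1, Neurod6) summed to 249 to 363 FPKM in region 1 and 278 to 316 in region 2, although the blocks are labelled as free of cortex, and to 1.26 to 14.3 in the cord. Microglia and macrophage markers summed to 40.2, 45.9 and 44.9 FPKM in 3 libraries of region 2 and to 242 in that of stimulated animal 2, which also had the highest sum of region 1, at 353. In bulk tissue, fewer cells of a type and less RNA per cell cannot be told apart.

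Most of the 173 entries have provisional names: 112 carry LOC identifiers and 56 Ensembl identifiers. In RefSeq (assembly GRCr8), 35 of the 173 were found, 22 as lncRNA and 13 as protein coding, among them LOC100912557 (Atp5mpl) and Ndufb1, both components of the mitochondrial respiratory machinery. For those 13 the type given in the table and that of RefSeq differ, and the remaining 138 had no match. Of the 22, 5 span small nucleolar RNA genes and 2 span microRNA genes. The recognizable members are LOC100911498, which is Xist, the RNA that coats the inactive X chromosome; LOC100910827, which is Oip5-as1 (Cyrano), known for binding microRNA miR-7; Miat, a nuclear RNA of neurons; and Gas5 and Snhg4, hosts of small nucleolar RNAs. Snhg4 is a host by its name, but no small nucleolar RNA gene lay within its RefSeq span, so it is not among the 5. Malat1, Neat1, Meg3, Rmrp and Sox2ot were searched for by symbol and are not analysed here.

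The sequences below are mature microRNAs within the microRNA-spanning entries and promoter windows of 2 other entries. LOC100911992 spans Mir9-1 and LOC102548260 spans Mir135a, each on the same strand as its host entry. The 5p arms of the mature microRNAs, from RefSeq GRCr8 and with the seed (bases 2 to 8) in capitals, have different seeds. The FPKM values of the host entries do not measure these mature forms.
rno-miR-9a-5p: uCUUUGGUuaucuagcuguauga
rno-miR-135a-5p: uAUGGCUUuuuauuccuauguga
The former lies at chr2:175974986-175975008 on the plus strand and the latter at chr7:28499221-28499243 on the minus strand.

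A promoter window of 250 bases before to 50 bases after the start was available for 33 of the matched entries. Those of LOC100910973 and Gas5 are printed because these entries had unlike patterns over the libraries, as given further on. Both strands were searched for 5 motifs and matches are in capitals.
LOC100910973: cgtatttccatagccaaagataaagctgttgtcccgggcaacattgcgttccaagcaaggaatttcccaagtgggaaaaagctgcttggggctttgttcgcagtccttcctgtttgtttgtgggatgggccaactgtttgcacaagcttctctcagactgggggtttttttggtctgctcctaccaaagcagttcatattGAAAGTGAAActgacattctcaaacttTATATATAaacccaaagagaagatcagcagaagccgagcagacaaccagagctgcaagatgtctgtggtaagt
Gas5: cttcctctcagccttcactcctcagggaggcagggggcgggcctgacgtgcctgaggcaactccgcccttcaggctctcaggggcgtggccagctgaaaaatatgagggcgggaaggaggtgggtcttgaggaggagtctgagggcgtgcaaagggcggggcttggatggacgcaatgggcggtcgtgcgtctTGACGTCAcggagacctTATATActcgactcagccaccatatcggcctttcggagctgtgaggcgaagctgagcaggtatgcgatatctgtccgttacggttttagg
The windows are chr1:217133198-217133497 on the minus strand and chr13:75836713-75837012 on the plus strand of GRCr8. The window of LOC100910973 holds GAAAGTGAAA, a match to the interferon response element core (GAAA, any 2 bases, then GAAA), which occurs in 3.92% of all 33469 promoters, and 2 overlapping copies of TATATA, found in 6.15%. The window of Gas5 holds the cAMP response element TGACGTCA, found in 1.83% of all promoters, and TATATA. Neither window held the CCAAT box, found in 37.5%, or the GAS element TTCNNNGAA, found in 8.87%. A match is only a run of letters.

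The levels spanned a wide range. The median of the 173 mean levels was 10.8 FPKM, 92 entries had a mean of at least 10, 37 of at least 20 and 9 of at least 50. All 20 libraries were at or above 5 FPKM for 100 entries and at or above 1 FPKM for 169, and the median over libraries was at least 5 for 154. The highest library was under 2 times the lowest for 52 entries and over 10 times the lowest for 11. Just inside the limit were LOC102546688 at a mean of 5.12, LOC102551889 at 5.04 and LOC100912247 at 5.02 FPKM, and just outside it AABR07059159.1 at 4.99, LOC103693676 at 4.95 and LOC103694089 at 4.95.

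A single entry, LOC102547101, held the top rank with a mean of 1478 FPKM and a range of 1202 to 2280. Its highest libraries were 1932 and 2280 FPKM, both from the lesion. Its means in white matter, 1402 ± 84.7 (SD, n = 8), and cord, 1529 ± 327 (SD, n = 12), differed by -0.10 on the log2 scale (SE 0.10), which did not pass in limma (adjusted p = 0.378). Next came LOC102552325 with a mean of 328 FPKM, which describes no library. It stood at 1484 FPKM in stimulated 2 of region 1, at 1781 and 752 in stimulated 1 and 2 of region 3, at 916 in control 1 of region 4 and at 1439 in control 2 of region 5. In the other 15 libraries it lay between 2.95 and 12.7 FPKM except for stimulated 2 of region 2, at 95.3. High and low libraries thus occurred in both conditions and within 1 animal, and no region or animal had all of its libraries high. The protein coding entry LOC499823 was high in the same 5 libraries (34.6 to 85.6 FPKM), with r = 0.919 over the 20 libraries, 5 of which come from each animal.

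The other entries of the highest mean were LOC100912557 at 89.0 FPKM, LOC102556685 at 83.0, AABR07019088.1 at 81.0, LOC100910827 at 71.8, LOC103694382 at 58.8, Ndufb1 at 57.8, AABR07065531.5 at 56.4 and LOC100911992 at 49.4. The nature of most of these transcripts is not given by their names.

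Summed over the 173 entries, the level in FPKM was 4563 ± 423 over the 8 white matter libraries and 4505 ± 507 over the 12 cord libraries (SD). The difference, 0.02 on the log2 scale, was within the spread (two-sided exact permutation test within animals, 10000 arrangements, p = 0.757). Without LOC102552325, a choice made after the data were seen, the difference was 0.09 (p = 0.0565, same exact permutation test). The difference was 0.10 without the entry of highest mean (p = 0.381), 0.10 with upper-quartile scaling (p = 0.338) and 0.12 for the median of the entries in place of their sum (p = 0.0304), all by the same exact permutation test, so only the median passed. These values include entries that reached the mean limit through 1 tissue alone, 28 through white matter and 10 through cord. The rule can thus tilt them toward white matter, and the p-values do not allow for it.

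**Figure D1:**
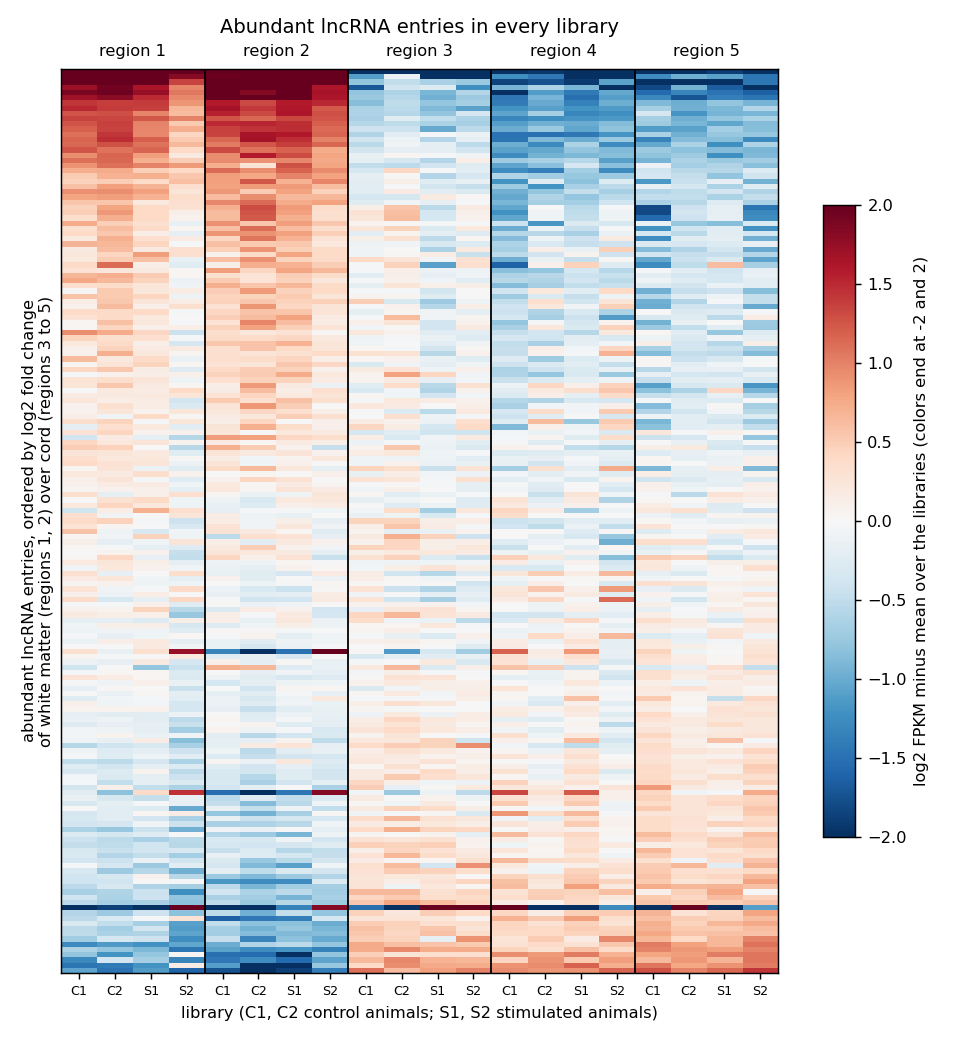
Log2 FPKM of each of the 173 abundant lncRNA entries in the 20 libraries, minus the mean of the entry over the libraries (color, ends at -2 and 2), with libraries grouped by region and entries ordered by the white matter to cord difference. Entries at the top are red in regions 1 and 2 and blue in regions 3 to 5, the order is turned at the bottom, and single rows break the pattern, among them LOC103694382, LOC100910973 and LOC102552325, which are red in stimulated animal 2 of region 2.

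The abundant lncRNAs differed between white matter and cord in both directions. An entry can reach the mean of 5 FPKM through one tissue alone, and then had to differ. Of the 173, 28 had a mean under 5 in cord (26 of them higher in white matter) and 10 a mean under 5 in white matter (10 of them lower there). Of the 135 whose mean reached 5 FPKM in both tissues, 52 (38.5%) were higher and 45 (33.3%) lower in white matter, against 25.1% and 48.0% of the 7317 genes that met the same limit, and the median log2 fold changes were -0.01 and -0.14. Over all entries, those 38 included, 133 of 173 passed an adjusted p of 0.05 in limma, a share of 76.9% against 72.2% of the 15210 genes tested. Of these, 78 (45.1%) were higher in white matter, against 25.0% of all genes, and 55 (31.8%) were lower, against 47.1%. Protein coding genes with a mean of at least 5 FPKM gave 25.8% higher and 49.9% lower. The entries had a median log2 fold change of 0.09, all genes one of -0.18. Upper-quartile scaling moved the counts of entries to 84 higher and 50 lower and the shares of all genes to 30.9% and 43.4%, and quantile normalization, which moved the median of all genes by over 0.1, gave 86 and 50 against 33.2% and 39.6%. Groups did not overlap for 56 entries, 29 above and 27 below, that is 32.4% against 27.1% of all genes, which split into 10.3% and 16.8%.

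The calls between white matter and cord were also counted by annotation, beside 25.0% of all genes higher and 47.1% lower in white matter. Of the 138 with no RefSeq match, 72 (52.2%) were higher and 39 (28.3%) lower in white matter. Of the 13 that RefSeq holds as protein coding, 1 was higher and 8 lower. Of the 5 that span small nucleolar RNA genes, 0 were higher and 1 lower, both that span microRNA genes were lower, and of the other 15 RefSeq lncRNAs 5 were higher and 5 lower. These counts include the entries that reached the mean limit through 1 tissue alone, and the classes other than the 138 are small. They were not compared by a test.

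The entry with the widest contrast was AABR07026032.3. It ranged from 14.7 to 22.6 FPKM in white matter (median 17.9) and from 0.1, the floor of the table, to 0.309 in cord (median 0.166). No library of one tissue came near the other, and the log2 fold change was 6.70 (SE 0.20). This entry reached the mean of 5 FPKM through white matter alone, so its tissue difference is a description. Its level followed those of Fezf2 and Tbr1, transcription factors of cortical projection neurons (r = 0.992 with each over 20 libraries, 0.18 once region means were removed). In these libraries Tbr1 stood at 10.7 FPKM or more in regions 1 and 2 and at 0.105 or less in the cord. The part of cortical tissue in the blocks was not tested.

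Other entries high in white matter kept a low level in cord and likewise passed the mean through white matter, so no test is given for them. LOC103692931 ranged from 10.4 to 19 FPKM in white matter and from 0.441 to 2.67 in cord, for a difference of 3.75 on the log2 scale (SE 0.24). AABR07007879.1 ranged from 12.0 to 33.1 and from 0.723 to 3.35 (3.70, SE 0.16), with its highest values in region 2. LOC103691651 ranged from 7.19 to 20.5 and from 0.593 to 3.02 (3.15, SE 0.24). The protein coding genes whose level was most like that of LOC103692931 and LOC103691651 were Psrc1 (r = 0.975) and Jph1 (r = 0.973).

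The entries lowest in white matter relative to cord had less extreme contrasts. AABR07008030.1 ranged from 1.16 to 2.31 FPKM in white matter and from 7.33 to 13.0 in cord, for a difference of -2.56 on the log2 scale (SE 0.10), and passed the mean through cord alone. LOC102550300 ranged from 2.49 to 15.7 and from 18.6 to 32 (-2.15, SE 0.22, adjusted p = 3.82e-08), with the library of stimulated 2 in region 1 the highest of white matter. AABR07043711.1 ranged from 3.79 to 8.57 and from 15.1 to 23.3 (-1.86, SE 0.12, adjusted p = 3.96e-11), and LOC102549756 from 3.48 to 15.0 and from 17.8 to 31.2 (-1.81, SE 0.14, adjusted p = 1.42e-09). In none of the 4 did the tissues overlap. The nearest protein coding partner of AABR07008030.1 was Pip4k2a (r = 0.995, 0.81 once region means were removed), and that of LOC102549756 was Itih5 (r = 0.995, 0.96). The oligodendrocyte markers given above had the same order of tissues, and their part in these values was not tested.

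Among the lncRNAs of known role, Miat and Oip5-as1 were higher in white matter and Gas5 was higher in cord. Miat ranged from 15.8 to 30.1 FPKM in white matter (median 21.5) and from 7.23 to 13.4 in cord (median 9.86), without overlap, for a log2 fold change of 1.10 (SE 0.08, adjusted p = 2.04e-10). LOC100910827 (Oip5-as1) ranged from 63.3 to 118 (median 94.4) and from 45.4 to 73.8 (median 58.5), with overlap through 1 library of region 1, at 0.68 (SE 0.09, adjusted p = 1.85e-06). Gas5 ranged from 19.1 to 28.0 (median 22.5) and from 31.6 to 42.2 (median 35.1), without overlap, at -0.65 (SE 0.07, adjusted p = 1.80e-07). Snhg4 was at 6.78 to 13.4 FPKM and 5.77 to 15.9, the ranges of both tissues lying over each other, and did not pass (0.07, SE 0.15, adjusted p = 0.692).

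The entries other than Gas5 that span small nucleolar RNA genes had nearly level values. LOC100911177, which spans Snord12 and Snord12c, had a mean of 35.2 ± 3.91 FPKM over the 8 white matter libraries and of 34.6 ± 3.78 over the 12 cord libraries (SD; log2 fold change 0.03, SE 0.07, adjusted p = 0.731). LOC100912041, which spans 7 small nucleolar RNA genes beside Slc3a2, had 16.6 ± 2.40 and 15.1 ± 2.53 (0.14, SE 0.11, adjusted p = 0.240). LOC102549726, which spans Snord48 and Snord52, had 9.61 ± 1.04 and 10.4 ± 1.13, and LOC100911266 had 8.79 ± 1.41 and 9.75 ± 1.42; neither passed (adjusted p = 0.180 and 0.0788).

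Both microRNA-spanning entries were lower in white matter and, within it, lower under the electrode. LOC100911992 (Mir9-1, known for neural progenitors and neurons) stood at 34.5, 33.6, 38.5 and 31.1 FPKM in region 1 and at 50.1, 44.8, 56.6 and 40.5 in region 2, in the order control 1, control 2, stimulated 1 and stimulated 2. Every region 1 library lay under every region 2 library, the log2 fold change being -0.47 (adjusted p = 0.00715). In cord it ranged from 47.2 to 62.3, and white matter against cord gave -0.43 (SE 0.06, adjusted p = 3.45e-06). LOC102548260 (Mir135a) stood at 6.17, 5.68, 7.13 and 4.94 FPKM in region 1 and at 9.18, 8.74, 9.51 and 8.39 in region 2, in the same order. These groups did not overlap either, at -0.59 (adjusted p = 0.003), and white matter was below cord, which ranged from 9.65 to 15.8, in every library (-0.66, SE 0.06, adjusted p = 2.61e-08). Between regions 1 and 2, LOC100911992 no longer passed in limma without control 1, control 2 or stimulated 1 (adjusted p = 0.114, 0.0806 and 0.0935), and LOC102548260 no longer passed without control 1 (adjusted p = 0.0538).

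**Figure D2:**
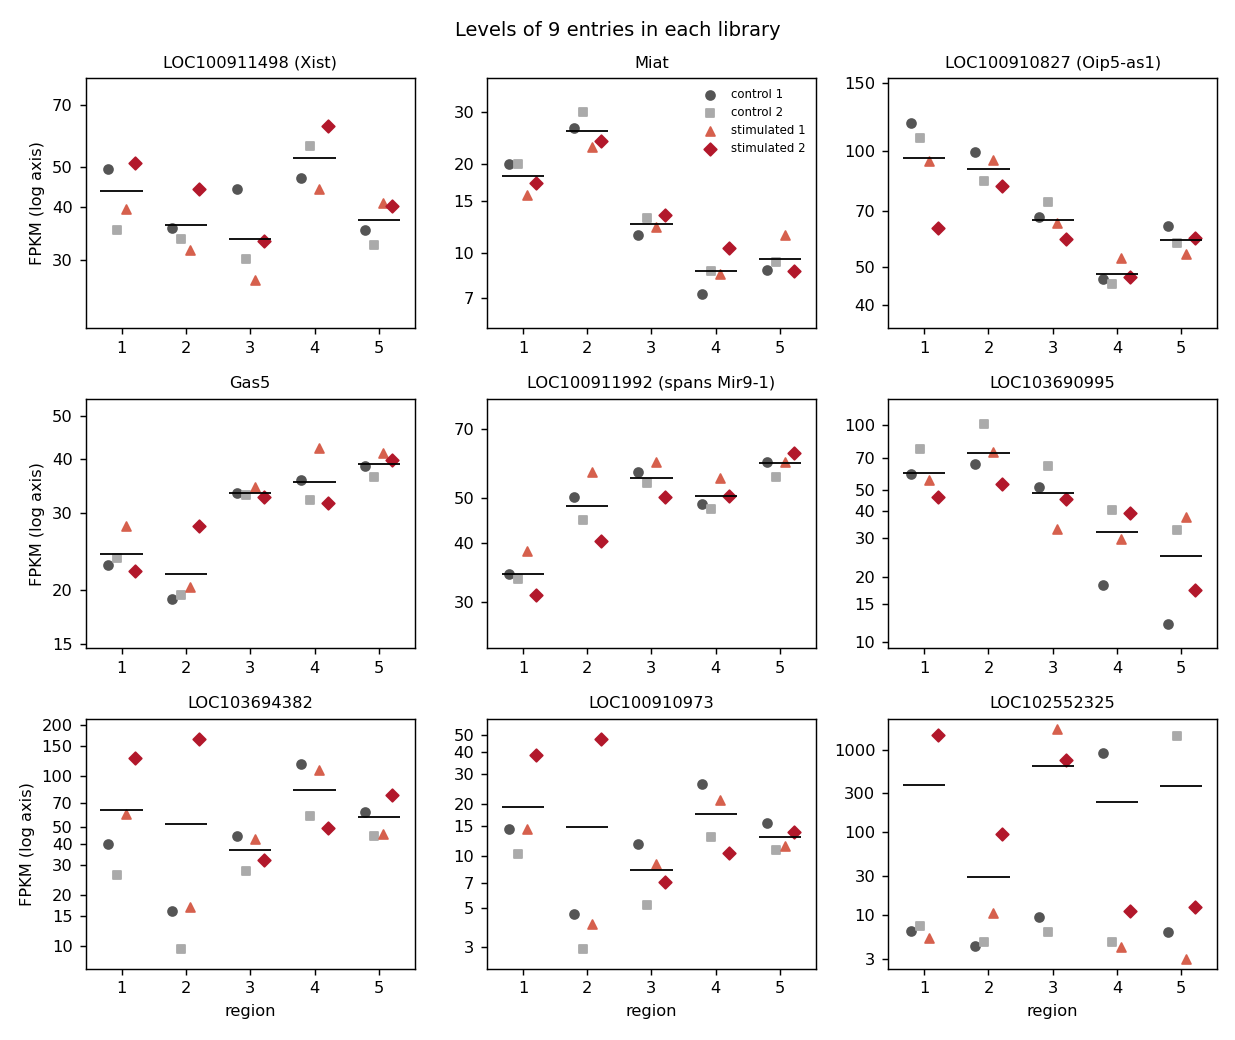
FPKM (log axis) of 9 entries in each of the 20 libraries, by region, with 1 marker per animal and a bar at each region's mean over 4 libraries. Miat and Oip5-as1 are highest in regions 1 and 2 and Gas5 in regions 3 to 5, LOC103694382 and LOC100910973 are highest in stimulated animal 2 of region 2 (167 and 47.7 FPKM), and LOC102552325 lies either between 2.95 and 12.7 FPKM or between 752 and 1781 in all but 1 library.

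The hemisphere under the electrode was compared with the other one. Region 1 was also the side opposite the injury in every rat, and 2 of its 4 libraries came from stimulated animals. The model held no term for stimulation, so implant, side relative to the injury and current cannot be told apart in this comparison. Of the 173 entries 13 passed, 7.51% against 8.61% of all genes. Groups did not overlap for 19 (11.0%, all genes 7.57%), 3 above and 16 below in region 1, against 4.4% and 3.16%. The 4 that were higher in region 1 compare with 6.86% of all genes, and the 9 that were lower with 1.76%. Quantile normalization, which moved the median log2 fold change of all genes from 0.06 to -0.05, gave 5 and 16, against 6.20% and 5.53% of all genes. The lower ones include Miat, which stood at 20.1, 20, 15.8 and 17.2 FPKM in region 1 and 26.5, 30.1, 22.8 and 24 in region 2 (log2 fold change -0.50, adjusted p = 0.0164). The largest fall was that of LOC103692585, at 4.45, 6.47, 5.13 and 3.91 against 10.3, 10.1, 7.67 and 7.38 FPKM (-0.84, adjusted p = 0.00976). In both entries all region 1 libraries were the lower ones.

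Of the 4 higher entries, the largest difference was that of LOC103692025, which RefSeq holds as part of Lhfpl3, a gene of oligodendrocyte progenitors. It stood at 5.43, 6.33, 7.61 and 9.57 FPKM in region 1 and at 2.52, 2.91, 3.01 and 6.16 in region 2 (1.05, adjusted p = 0.00731), the sides overlapping through the library of stimulated 2 in region 2. This entry was named after its values were seen. LOC100912503 also passed without overlap (0.43, adjusted p = 0.0326). The count of 13 rested on the animals: it was 0, 1 and 1 without control 1, control 2 and stimulated 1, and 37 (24 higher and 13 lower) without stimulated 2. The library of stimulated 2 in region 2 had the high microglia and macrophage sum given above.

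At the lesion, most entries that changed relative to rostral cord had fallen. Against region 3, 44 of 173 passed (25.4% against 19.6% of all genes), 4 higher (6.78% of all genes) and 40 lower (12.8%). Groups did not overlap for 46 (26.6%, all genes 28.8%), 4 above and 42 below, against 13.0% and 15.7%. Upper-quartile scaling gave 9 and 41, and 13.9% and 16.4% of all genes. The entries had a median log2 fold change of -0.16, all genes one of -0.02. Of the 40 that fell, 25 were higher in white matter than in cord and 10 were lower. The lesion is part of the cord mean, and some of these entries passed the mean limit through white matter alone. This split is therefore only a description, and no share of all genes is given beside it. Markers of neurons summed to 433 to 538 FPKM at the lesion and to 679 to 880 rostrally, and their part in these falls was not tested. Without control 1, control 2 or stimulated 1 the count was 18, 9 and 25, and without stimulated 2 it was 65.

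The steepest fall was that of LOC103691146, which RefSeq places near Ndn. It stood at 3.35, 4.39, 4.96 and 4.68 FPKM in region 3, at 1.82, 1.79, 1.87 and 2.23 at the lesion and at 3.24, 2.60, 3.01 and 3.00 in region 5. All 4 lesion libraries lay below all libraries of both neighbours, at -1.16 against rostral (adjusted p = 0.000319) and -0.62 against caudal cord (adjusted p = 0.0382). Its level followed that of Snrpn, an imprinted gene of the Prader-Willi domain (r = 0.969, 0.752 after region means were removed). Snrpn stood at 42.2 to 49.8 FPKM at the lesion and at 60.7 to 82.1 rostrally. Other genes of that domain followed the entry less or not at all, with r = 0.580 (0.595) for Ndn and -0.415 (0.184) for Ube3a. These genes were picked by name, and the highest r with this entry was that of Pnmal1 (0.987, 0.821). Of 4 measured genes of that domain, Ube3a, Snrpn, Snurf and Ndn, 3 fell at the lesion against rostral cord and 3 against caudal cord. Of all genes, 12.8% and 7.06% were lower in these comparisons, and 4 genes are few for such a share. LOC102555617, also beside Ndn, fell against rostral cord as well (-0.71, adjusted p = 0.00812).

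AABR07027407.1 gave the second steepest fall. It stood at 21.1, 36.1, 26.4 and 23.2 FPKM rostrally, at 11.4, 10.4, 16.8 and 11.2 at the lesion and at 20.5, 18.3, 18.2 and 22.2 caudally, for -1.09 (adjusted p = 0.000255) and -0.69 (adjusted p = 0.0192). The lesion libraries were again the lowest. AABR07007879.1 (-0.98, adjusted p = 0.0108) and LOC102549818 (-0.94, adjusted p = 0.00216) followed. Miat fell as well, from 11.5, 13.1, 12.2 and 13.4 FPKM to 7.23, 8.68, 8.5 and 10.4 (-0.54, adjusted p = 0.00456), and Oip5-as1 from 67.5, 73.8, 65.0 and 59.1 to 46.8, 45.4, 53.0 and 47.2 (-0.46, adjusted p = 0.0277). For both, the 2 regions did not overlap. LOC103691146, AABR07027407.1 and LOC102549818 passed against rostral cord with any 1 animal left out. Miat did not pass without control 2 (adjusted p = 0.0698 in limma), nor Oip5-as1 without control 1, control 2 or stimulated 1 (adjusted p = 0.12, 0.237 and 0.0913).

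The 4 entries that were higher at the lesion than rostrally include Xist. LOC100911498 (Xist) stood at 44.2, 30.2, 26.9 and 33.2 FPKM in region 3 and at 47.1, 56.0, 44.2 and 62.4 at the lesion. The groups overlapped only through the library of control 1 in region 3, and the log2 fold change was 0.65 (adjusted p = 0.00811). Without control 2 it was 0.57 with an adjusted p of 0.111 in limma. LOC102554630, at 0.68 (adjusted p = 0.0137), moved with it over the 20 libraries (r = 0.979), as did Rn60_X_0752.3 (r = 0.943), which did not pass. The remaining entries were AABR07002969.1 (0.56, adjusted p = 0.0437) and LOC103694334 (0.37, adjusted p = 0.0188). Of 6 genes tied to X inactivation (Rlim, Spen, Hdac3, Ciz1, Smchd1, Cnbp), 0 passed in this comparison, against 19.6% of all genes. With 6 genes these shares cannot be told apart.

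Against caudal cord the lesion differed for 17 entries (9.83%, all genes 7.99%), 5 higher and 12 lower against 0.934% and 7.06% of all genes. Groups did not overlap for 34 (19.7%, all genes 18.1%), 5 above and 29 below, against 1.84% and 16.3%. The entries had a median log2 fold change of -0.12, all genes one of -0.14, and upper-quartile scaling moved the latter to 0.02 and the counts to 3 higher and 1 lower, quantile normalization to 0 and 2. The largest positive differences were those of LOC103694142 (0.93, adjusted p = 0.0323), AABR07021730.1 (0.76, adjusted p = 0.0398) and AABR07017200.1 (0.67, adjusted p = 0.0282). LOC678796 (-0.52, adjusted p = 0.0162) and LOC102546820 (-0.50, adjusted p = 0.0282) fell. Without control 1 or control 2 no entry passed, without stimulated 2 there were 6, and with the animal as a block there were 29, 8 higher and 21 lower.

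Of the 173 entries, 9 were lower at the lesion than in both neighbours, against 4.03% of all genes, and 0 were higher than in both, against 0.454%. The 9 were AABR07027407.1, AABR07017145.1, LOC102546820, LOC102554288, LOC103692311, LOC102548037, AABR07024542.1, LOC103691146 and LOC103693348. In 32 entries no region comparison passed, against 22.3% of all genes, among them the top-ranked LOC102547101, Snhg4 and 4 of the small nucleolar RNA hosts named above.

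Caudal and rostral cord differed for 15 entries (8.67%, all genes 4.32%), 4 higher and 11 lower, against 2.77% and 1.55% of all genes. Groups did not overlap for 45 (26%, all genes 25.5%), 16 above and 29 below, against 20.5% and 5.02%. Upper-quartile scaling gave 3 and 26, quantile normalization 2 and 23, and both moved the median of all genes by over 0.1. AABR07007879.1 fell furthest, from 2.72, 3.35, 3.00 and 2.81 FPKM rostrally to 0.919, 1.16, 0.723 and 1.73 caudally (-1.46, adjusted p = 0.00347), with every caudal library below. LOC102551346 (-0.92, adjusted p = 0.024), LOC102549818 (-0.86, adjusted p = 0.0141) and AABR07048878.1 (-0.77, adjusted p = 0.039) followed. LOC103693743 (0.56, adjusted p = 0.0193), LOC103691695 (0.42, adjusted p = 0.0119), LOC103694334 (0.42, adjusted p = 0.0286) and LOC103690952 (0.35, adjusted p = 0.0436) were higher. Without control 1 or stimulated 1 no entry passed, and without control 2 there was 1.

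**Figure D3:**
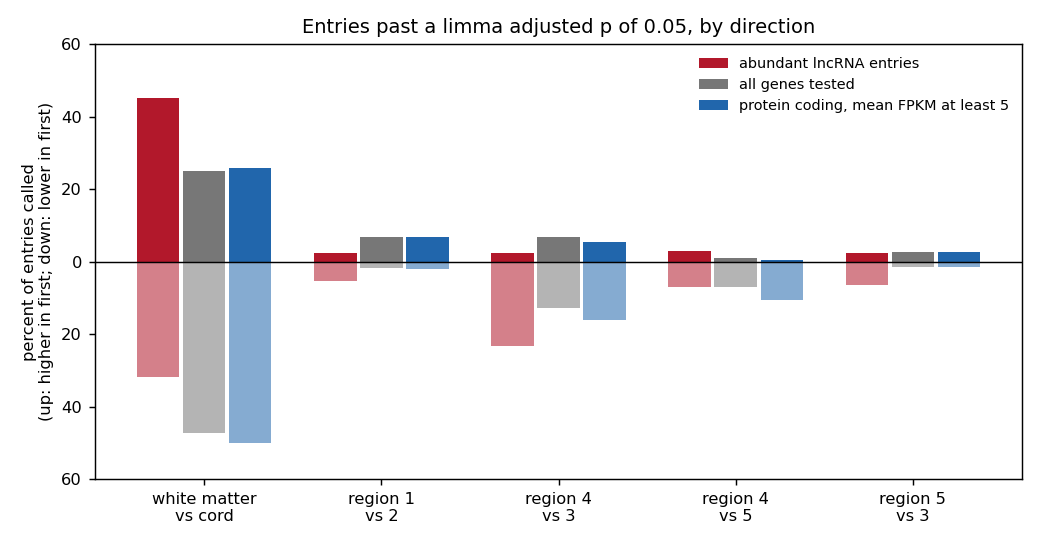
Percent of entries past a limma adjusted p of 0.05 in 5 region comparisons, upward for those higher in the first region and downward for those lower, for the 173 abundant lncRNA entries (red), all 15210 genes tested (gray) and protein coding genes with a mean of at least 5 FPKM (blue). The entries reach 45.1% higher in white matter against 25.0% of all genes, but this share counts entries that passed the mean limit through white matter alone. Where both tissue means reached 5 FPKM, the shares were 38.5% of the entries and 25.1% of the genes. At the lesion against rostral cord, 23.1% of the entries were lower, against 12.8% of all genes.

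A set of 7 entries varied together across libraries: LOC103690995, LOC103691149, LOC102551346, LOC102552061, LOC102556257, LOC103691127 and LOC103691148. The lowest r between any 2 of them was 0.925 over 20 libraries and 0.843 after region means were removed. They were gathered after their values were seen and get no test. LOC103690995 stood at 59.7, 77.3, 56.0 and 46.3 FPKM in region 1, at 66.0, 101, 75.2 and 53.3 in region 2 and at 51.8, 64.3, 33.3 and 45.7 in region 3. At the lesion it stood at 18.3, 40.5, 29.8 and 39.4 and caudally at 12.2, 32.9, 37.7 and 17.4. Control 1 was the lowest library of both regions 4 and 5, and control 2 the highest of regions 1 to 4. Rtl1, an imprinted gene of the Dlk1-Dio3 domain, gave r = 0.748 with LOC103690995 (0.915 after region means) and Dlk1 of the same domain gave r = -0.618 (0.225). The table does not place these entries in the genome.

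LOC103694382 and LOC100910973 formed a pair with a different profile (r = 0.959, 0.976 after region means). LOC103694382 stood at 39.7 and 26.3 FPKM in the control libraries of region 1 and at 60.4 and 128 in the stimulated ones. In region 2 it stood at 16.1 and 9.58 in control and at 17.0 and 167 in stimulated animals. At the lesion it was at 118 and 58.1 in control and 108 and 49.8 in stimulated animals, and in regions 3 and 5 between 27.7 and 77.6. Both libraries of stimulated 2 in the brain were thus the highest of all 20, and at the lesion the same animal was the lowest.

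LOC100910973 was also highest in stimulated 2 of the brain regions and lowest in stimulated 2 at the lesion. It stood at 14.4, 10.4, 14.3 and 38.5 FPKM in region 1 and 4.62, 2.90, 4.08 and 47.7 in region 2. At the lesion it stood at 26.1, 12.9, 21.1 and 10.4. The protein coding gene most like LOC103694382 was RT1-A2, which encodes a class I major histocompatibility chain (r = 0.989, 0.989 after region means), and B2m, the light chain of that complex, gave 0.949 and 0.991. LOC100910973 followed Irf1, an interferon regulatory transcription factor (r = 0.976, 0.974), and C1qc, a complement gene of microglia (r = 0.971, 0.986). Irf1 and C1qc were picked by name, and the highest r with this entry was that of Fam46a and Ifi47 (0.979 each). C1qc stood at 163 FPKM in stimulated 2 of region 2 against 6.55 to 11.9 in the other libraries of that region. The sums of microglia and macrophage markers were 122 and 115 FPKM in control and 229 and 353 in stimulated libraries of region 1, and 275 to 737 at the lesion, where stimulated 2 was the lowest. The part of these cells in both entries was not tested.

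For LOC103694382, white matter against cord gave a log2 fold change of -0.54 (adjusted p = 0.241), and without stimulated 2 it gave -1.24 (adjusted p = 0.0002 in limma). The lesion against rostral cord gave 1.11, which did not pass (adjusted p = 0.23), and without stimulated 2 it passed with an adjusted p of 0.0136 in limma.

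**Figure D4:**
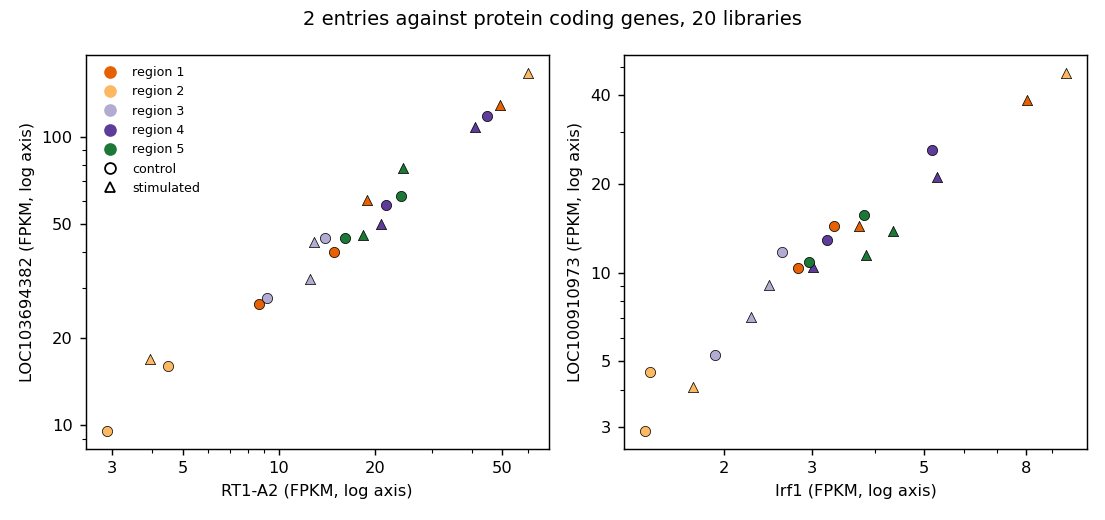
FPKM of LOC103694382 against RT1-A2 and of LOC100910973 against Irf1 in the 20 libraries (log axes), colored by region, circles for control and triangles for stimulated animals. Both pairs lie along a line, with the stimulated 2 libraries of regions 1 and 2 at the upper right (128 and 167 FPKM of LOC103694382), and 3 of 4 libraries of region 2 at the lower left.

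Stimulation was examined within each region, 2 stimulated against 2 control libraries, to ask what a week of current changed beyond injury and implant. By limma 0 of the 173 entries passed an adjusted p of 0.05 in any of the 5 regions, as did 0 genes of the table in regions 1 to 4 and 3 in region 5 (0.0197%). At an unadjusted p under 0.05 there were 12 entries in region 1 (of 828 genes, 5.44% of those tested), 6 in region 2 (of 215, 1.41%), 16 in region 3 (of 522, 3.43%), 6 in region 4 (of 341, 2.24%) and 7 in region 5 (of 546, 3.59%). In simulated data of this size, a log2 change of 2 in 200 genes was recovered for 78.0% and a change of 1 for 0. Changes of that smaller size were therefore not detectable here.

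Directions can be described without a test. The groups did not overlap for 74 entries in region 1 (42.8%, all genes 40.6%), of which 11 were higher and 63 lower with stimulation, while all genes split into 21.2% and 19.5%. In region 3 they did not overlap for 58 (33.5%, all genes 29.9%), 8 higher and 50 lower, against 5.14% and 24.7%. In region 4 there were 43 (24.9%, all genes 20.2%), 34 higher and 9 lower, against 12.5% and 7.69%. Region 2 had 43 (24.9%, all genes 27.0%) with 20 higher and 23 lower, against 20.2% and 6.77%, and region 5 had 40 (23.1%, all genes 24.6%) with 26 and 14, against 18.5% and 6.07%. The median log2 fold changes of the entries in regions 1 to 5 were -0.16, -0.03, -0.11, 0.09 and 0.04, and those of all genes were -0.03, 0.08, -0.07, 0.00 and 0.05. In region 3 the median of the entries was -0.04 with quantile normalization and -0.03 with upper-quartile scaling. Quantile normalization moved the median of all genes in region 2 to -0.06 and that of the entries to -0.14. Since the same 4 animals supplied all regions, these are not separate experiments.

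Cell type markers also differed between conditions, with or against the direction of most entries depending on cell type and region. In region 1 the markers of neurons summed to 1098 and 1102 FPKM in control and 693 and 1028 in stimulated libraries. Those of cortical excitatory neurons summed to 352 and 363 against 249 and 283, those of astrocytes to 571 and 614 against 959 and 1130, and those of microglia and macrophages to 122 and 115 against 229 and 353. Markers of spinal neurons summed to 111 and 112 FPKM in control against 96.8 and 98.1 in stimulated libraries of region 3, and to 80.6 and 84.0 against 84.9 and 94.9 in region 4, where the direction is the opposite one. In region 5 the markers of neurons summed to 634 and 721 FPKM in control against 596 and 606 in stimulated libraries. Those of spinal neurons summed there to 117 and 125 against 105 and 111. Both were lower with stimulation, while the entries of region 5 without overlap were 26 higher and 14 lower. None of these sums overlapped between conditions, but they are a selection. The sums of neurons overlapped in region 3 (705 to 880 FPKM in control, 679 to 752 in stimulated libraries) and in region 4 (433 to 449 and 445 to 538). Schwann cell markers rose without overlap in region 5 (83.5 and 105 against 224 and 227) and fell in region 4 (103 and 114 against 75.4 and 78.2). Fibroblast markers rose in region 5 (44.7 and 47.2 against 86.7 and 146). The part of these cells in the directions was not tested.

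**Figure D5:**
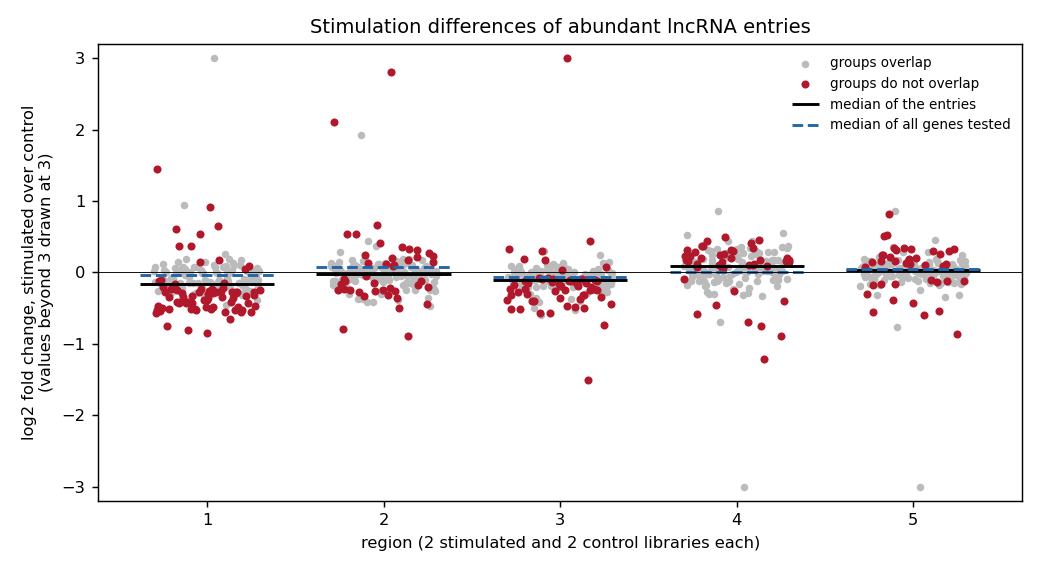
Log2 fold change, stimulated over control, of the 173 abundant lncRNA entries in each region, red where the 2 stimulated and 2 control libraries do not overlap and gray where they do, with the median of the entries (solid) and of all genes tested (dashed). Values beyond 3 are drawn at 3. The entries lie mostly below 0 in region 1 (median -0.16) and region 3 (median -0.11, and -0.04 with quantile normalization), and none passed the test. In region 1, neuron markers were lower and astrocyte markers higher in both stimulated libraries.

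In region 1 the smallest p among entries without overlap belonged to AABR07051882.1, at 13.1 and 13.5 FPKM in control and 9.94 and 8.57 in stimulated animals (log2 fold change -0.52, SE 0.13). AABR07059380.1 stood at 9.21 and 9.72 against 6.87 and 5.30 (-0.65, SE 0.18), and LOC102549619 at 8.20 and 8.22 against 10.7 and 10.5 (0.37, SE 0.10). The stimulated libraries were the lower ones for the former pair and the higher ones for the latter entry, and the limma adjusted p was 0.712 for each. In region 2, LOC103691538 stood at 10.2 and 9.86 in control and 5.18 and 5.66 in stimulated animals (-0.89, SE 0.10), LOC103692585 at 10.3 and 10.1 against 7.67 and 7.38 (-0.44, SE 0.08) and Rn60_13_0822.1 at 16.0 and 14.8 against 18.9 and 19.6 (0.32, SE 0.08). The adjusted p was 0.949 for these.

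In region 3 the smallest p was that of LOC102552325, at 9.51 and 6.31 FPKM in control and 1781 and 752 in stimulated libraries (7.22, SE 0.51, adjusted p = 0.488). This is the entry whose level jumped between libraries of both conditions, and in regions 4 and 5 its high libraries were control ones. LOC102550180 stood at 15.3 and 16.9 against 10.2 and 9.08 (-0.74, SE 0.10), and AABR07059380.1 at 9.66 and 9.67 against 7.70 and 7.84 (-0.31, SE 0.06), with an adjusted p of 0.956 each. In region 4, LOC103692931 stood at 1.25 and 1.09 against 0.572 and 0.441 (-1.22, SE 0.20), and LOC103691538 at 9.22 and 8.74 against 4.65 and 6.10 (-0.75, SE 0.19). None of these differences passed.

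Rn60_10_0702.4 was the only entry of the 173 whose stimulated libraries lay on the same side of both control libraries in all 5 regions. Of all genes tested, 32 (0.210%) did so. It stood at 8.21 and 8.07 FPKM in control and 5.85 and 3.96 in stimulated animals in region 1, at 9.55 and 8.27 against 6.22 and 4.25 in region 2 and at 6.13 and 8.47 against 5.33 and 4.77 in region 3. At the lesion it stood at 6.20 and 6.01 against 4.17 and 3.95 and caudally at 6.33 and 6.65 against 4.57 and 4.23. The stimulated animals were lower throughout, with log2 fold changes of -0.76, -0.79, -0.51, -0.59 and -0.56, and no adjusted p passed. LOC102550180 and LOC103691538 were lower without overlap in 4 of the regions (3 entries in at least 4, 0.966% of all genes). For LOC102550180 the caudal values were 17.8 and 16.8 against 8.81 and 10.1 (-0.87, SE 0.11, adjusted p = 0.522). The protein coding entry most like Rn60_10_0702.4 and LOC102550180 was LOC688613 (r = 0.924 and 0.862), and Nr1d2, a repressor of the circadian clock, gave r = 0.88 with the former. All 5 regions compare the same 4 animals.

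LOC102556321 stood at 4.00 and 5.86 FPKM in control and 8.61 and 6.66 in stimulated animals in region 1, at 7.08 and 5.93 against 3.27 and 4.90 at the lesion and at 6.14 and 6.56 against 4.47 and 3.94 caudally. Stimulated libraries were thus the higher ones in region 1 (0.65, SE 0.27) and the lower ones in region 4 (-0.69, SE 0.26) and region 5 (-0.60, SE 0.13), and none of the 3 passed.

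For the pair with the immune gene profile, stimulation in region 1 gave 1.45 (SE 0.46, adjusted p = 0.712) for LOC103694382 and 0.94 (SE 0.55, adjusted p = 0.712) for LOC100910973. In region 2 the values were 2.1 (SE 1.27) and 1.93 (SE 1.36), both with an adjusted p of 0.949 and both resting on the library of stimulated 2. Xist, Gas5, Miat, Oip5-as1 and the microRNA-spanning entries did not pass in any region. Oip5-as1 stood at 118 and 108 FPKM in control and 94.0 and 63.3 in stimulated libraries of region 1 (-0.55, SE 0.24), without overlap.

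The difference of the stimulation effects under the electrode and in the other hemisphere was tested on differences within each animal. By limma 0 of 173 entries passed (all genes 0), with 16 at an unadjusted p under 0.05 (all genes 575), and the lowest adjusted p was 0.884. For LOC103694382 the difference was -0.66 and for LOC100910973 -0.99. In simulated data a log2 difference of 2 was recovered for 45.5% of 200 genes.

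Genes tied to the known roles of lncRNAs were counted by list, beside the 72.2% of all genes that passed between white matter and cord. Of 8 proteins of paraspeckles, the nuclear bodies built on Neat1 (Nono, Sfpq, Pspc1, Tardbp, Rbm14, Matr3, Cpsf6, Nudt21), 2 were higher and 3 lower in white matter than in cord, and 0 passed in the other region comparisons or with stimulation. In those other region comparisons 4.32% to 19.6% of all genes passed. Of the X inactivation genes 1 of 6 was higher in white matter. Of the 4 Prader-Willi domain genes 2 were higher and 1 lower. Rtl1 and Dlk1 had a median log2 fold change of -2.11 in white matter against cord, where Dlk1 passed, as lower, and Rtl1 did not.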

How the data were processed

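The authors isolated total RNA, depleted ribosomal RNA, prepared stranded libraries, sequenced paired reads, aligned them to Rnor6 with TopHat 2.1.0 and estimated expression with Cufflinks 2.2.1. The authors deposited FPKM values per gene, with values under 0.1 raised to 0.1. The methods state default settings for the aligner and an annotation from earlier work of the same group, and name neither its version nor the strand setting of the counting, so overlapping and antisense entries are uncertain. The authors list the total reads of each library. FPKM values do not hold the reads behind each entry, so no counting interval is given. All 20 columns carried the name of a sample and 0 did not.

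Members were the lncRNA entries with a mean of at least 5 FPKM. The members and lists were chosen with earlier results of these data known. Log2 FPKM was fitted with limma 3.58.1 in R 4.3.3 (trend) over the 15210 genes with at least 1 FPKM in any library, which all 173 members passed. Region comparisons came from 1 model of 20 libraries, stimulation from the 4 libraries of each region, and p-values were adjusted by Benjamini-Hochberg over all genes tested. The region model held no term for the animal. Its SE and adjusted p therefore treat libraries of the same animal as independent, and the animal as a block was an alternative. Reported folds are on the floored log2 scale. Exact permutation of 2 against 2 libraries cannot go below p = 0.333. The fits were tested on simulated data with 200 changed genes. Names, neighbours and sequences came from RefSeq GRCr8, a later build than that of the table.

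Named were the 10 entries of highest mean, for each region comparison the 4 largest passing changes without overlap in each direction, for stimulation the 3 smallest p without overlap in each region, the 3 entries on either side of the mean limit, and known lncRNAs from a list. Partners are the protein coding genes with the highest Pearson r of log2 FPKM. Other pairs, among them those with B2m, Irf1, C1qc, Rtl1, Dlk1 and Snrpn, were picked by name. A few genes of the marker and related gene lists, and 1 partner, are not reported here. Others were chosen after their values were seen, among them the 7 entries that varied together, LOC100910973, Xist, LOC103692025 and the hosts of small RNAs.

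Regions were paired by animal: same-animal deviations had r of 0.413 to 0.768 for regions 1 and 2, 0.136 to 0.255 for 3 and 4, 0.0224 to 0.18 for 3 and 5 and -0.0883 to 0.105 for 4 and 5, so the pairing comes from the animals and not from these values, while the numbers of control and stimulated animals are only names (r from -0.213 to 0.321 by region). Alternatives were a pseudocount of 1, no filter on low values, a filter of 2 libraries, quantile normalization, upper-quartile scaling, no trend, a block and leaving out each animal.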

Additional observations from a re-analysis of the deposited data

Results flagged for a closer look

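A library stood apart from the other 3 of its region by Dixon's criterion in 19 of 235 sets examined (8.09%), where chance gives about 1 in 20. LOC102552325 accounted for 4 of them, with a highest library of 1484 FPKM (stimulated 2, region 1), 95.3 (stimulated 2, region 2), 916 (control 1, region 4) and 1439 (control 2, region 5). Stimulated 2 was the library apart in region 1 for LOC102556685 (lowest, 79.2 FPKM), AABR07007879.1 (lowest, 12.0) and LOC102550300 (highest, 15.7). In region 2 the same animal was the highest for LOC103694382 (167 FPKM), LOC102549619 (8.91) and Gas5 (28.0). Control 2 was the highest for AABR07019088.1 in region 2 (141 FPKM) and, in region 3, for AABR07043711.1 (21.6), LOC102548260 (15.8) and LOC102546820 (30.3).

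The remaining libraries apart were stimulated 2 in region 3 for LOC100912503 (lowest, 9.69 FPKM) and LOC102548037 (highest, 16.6), stimulated 2 in region 4 for AABR07007879.1 (highest, 2.23), stimulated 1 in region 3 for AABR07017200.1 (lowest, 13.2) and stimulated 1 in region 4 for AABR07027407.1 (highest, 16.8).

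In 5 cases every stimulated library moved one way in one region and the opposite way in another, and the difference was not tested. For AABR07059380.1 the log2 stimulation differences of regions 1 and 3 lay 0.83 and 0.49 below that of region 4 (-0.83 and -0.49), and region 4 lay 0.31 above region 5. For LOC102556321 region 1 lay 1.34 above region 4 and 1.24 above region 5.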

How the results depend on the processing

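In the white matter to cord comparison, 119 to 135 entries passed when each animal was left out in turn, and no other alternative moved the count of 133 by over 1.5 times. Between regions 1 and 2 the count of 13 became 8 without the filter, 21 with quantile normalization, 21 with upper-quartile scaling and 0 to 37 with an animal left out (37 without stimulated 2). For the lesion against rostral cord it ranged from 9 to 65 with an animal left out. For the lesion against caudal cord the count of 17 became 5 without the filter, 2 with quantile normalization, 4 with upper-quartile scaling and 0 to 14 with an animal left out. For caudal against rostral cord the count of 15 became 4, 25 and 29 in the same order and 0 to 13 with an animal left out. With stimulation, leaving out 1 animal gave 0 to 1 in regions 1, 2, 4 and 5. The cause was not tested.

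With the replicate block, where animals pair the regions, the lesion against caudal cord gave 29 entries, and stimulation in region 5, where the numbers do not pair animals, gave 3. The block ended 2 calls of white matter against cord, LOC102552179 and AABR07014855.1 (limma adjusted p = 0.0536 and 0.0551), and moved no other count by over 1.5 times. Numbers shared by control and stimulated animals were not crossed.

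At a mean of at least 10 FPKM 92 entries remained. The median of the entries in place of their sum gave a white matter to cord difference of 0.12 on the log2 scale (exact permutation p = 0.0304). That p does not allow for the entries that reached the mean limit through 1 tissue alone. The difference in white matter turned for LOC102547101 with quantile normalization (1.06), and without stimulated 1 for LOC102550180 (-0.0853 to 0.112 over the animals left out), LOC102556321 (-0.162 to 0.292) and Snhg4 (-0.046 to 0.193), none of which had passed. Of the other values of single entries, 1070 kept their direction and side of the threshold, 117 lost the threshold and 8 gained it. With 2 animals per condition, only large stimulation differences could pass, and the lack of read counts per entry leaves low entries without an error of counting.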

Other observations

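Several of the entries that RefSeq holds as protein coding bear the symbol of a gene that the table also lists as protein coding. The levels of both entries varied together to unlike degrees over the 20 libraries, 5 of which come from each animal. LOC102551716 and Nkain2, a regulator of the sodium pump, gave r = 0.797 (0.798 after region means were removed). LOC100910821 and Fndc4 gave 0.876 (-0.072), and LOC102556092 and Zfp664 gave 0.643 (0.116). LOC103691034 and Peg3, an imprinted zinc finger gene, gave 0.383 (0.480).

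RefSeq lncRNAs beside a protein coding gene did not share one relation to it. LOC100911177 gave r = 0.560 with Znfx1 (0.659 after region means) and LOC100912041 gave 0.334 with Slc3a2 (0.596). Snhg4 gave 0.391 with Matr3 (0.368), a nuclear matrix protein. LOC100911992 gave -0.605 with Mef2d, a transcription factor of neurons and muscle, and 0.598 after region means. Oip5-as1 gave -0.512 with Oip5, which stood at 0.722 FPKM or less in all 20 libraries. Reads shared by overlapping entries cannot be told apart here.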
